A study of Homo sapiens with 6 samples.

Results

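The miRNAs described here are hsa-miR-99a, hsa-miR-99b and hsa-miR-100, which form the miR-99 family, and hsa-miR-125a-5p, hsa-miR-125a-3p and hsa-miR-125b, which come from the miR-125 genes. They were taken by name and genomic neighbourhood, a choice made with earlier results of these data known, and make up 6 of the 377 human miRNA assays on the card. All 6 were determined in every sample and all 6 passed the filter for testing. Total RNA came from HEK-293FT cells, an established line derived from human embryonic kidney that carries the SV40 large T antigen. One group of 3 samples had been transfected with small interfering RNA (siRNA) against TruB1, a pseudouridine synthase. The other 3 samples are called control, and what they received is not described in the labels. A series number from 1 to 3 in the sample titles ties each knockdown (KD) sample to a control sample. Nothing says that the samples came from separate cultures, so a p-value measures only the spread between these samples, which may be technical. The amount of TruB1 left after knockdown was not analysed here.

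A miRNA is cut from a hairpin inside a long primary transcript, first by Drosha with DGCR8 in the nucleus and then by Dicer in the cytoplasm. By annotation, hairpins of the miR-99/100, let-7 and miR-125 families lie in 3 such transcripts, so they can be transcribed together. Each hairpin is cut and stabilised on its own. miR-125 is the vertebrate relative of worm lin-4, which with let-7 times development, and miR-99 family members are known to target mTOR. In undifferentiated cells LIN28 blocks let-7 maturation and leaves the neighbouring hairpins to be processed. TruB1 has been studied as a factor that acts on let-7, and the cluster partners are other mature products of the shared transcripts. The primary transcripts themselves were not measured here.

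The mature sequences are shown because shared seeds define the families and because some assays must tell apart targets that differ by 1 base. They are the assay target sequences of the deposited table, written 5′ to 3′, with the seed (bases 2 to 8) in capitals.
hsa-miR-99a: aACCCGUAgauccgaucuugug
hsa-miR-99b: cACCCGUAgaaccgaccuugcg
hsa-miR-100: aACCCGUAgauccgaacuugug
hsa-miR-125a-5p: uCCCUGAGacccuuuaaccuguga
hsa-miR-125b: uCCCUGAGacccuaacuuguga
hsa-miR-125a-3p: aCAGGUGAgguucuugggagcc
hsa-let-7a: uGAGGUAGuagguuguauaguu
hsa-let-7c: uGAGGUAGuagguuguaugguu
hsa-let-7e: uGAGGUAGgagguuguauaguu
The 3 miR-99 family members share 1 seed, and hsa-miR-125a-5p and hsa-miR-125b share another. Counted from 1 at the 5′ end, hsa-miR-100 differs from hsa-miR-99a by U16A alone, and whether the assays of this pair partly read each other was not tested. hsa-miR-99b differs from hsa-miR-99a by A1C, U11A, U16C and U21C. hsa-miR-125a-5p and hsa-miR-125b share their first 13 bases. hsa-miR-125a-3p is the opposite arm of the miR-125a hairpin and has a seed of its own. hsa-let-7a differs by 1 base from hsa-let-7c and by 1 base from hsa-let-7e. Whether these let-7 assays partly read each other was not tested either. All 9 sequences matched RefSeq mature miRNAs.

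By RefSeq annotation (GRCh38.p14), MIR99B, MIRLET7E and MIR125A lie within the coordinates of SPACA6 on chromosome 19 and span 728 bases. The MIR99B hairpin is at chr19:51692612-51692681, MIRLET7E at chr19:51692786-51692864 and MIR125A at chr19:51693254-51693339, all on the plus strand. MIR99A (chr21:16539089-16539169), MIRLET7C (chr21:16539828-16539911) and MIR125B2 (chr21:16590237-16590325) lie on the plus strand within the noncoding gene MIR99AHG. MIR100 (chr11:122152229-122152308), MIRLET7A2 (chr11:122146522-122146593) and MIR125B1 (chr11:122099757-122099844) lie on the minus strand within the noncoding gene MIR100HG. Of the 6 members, hsa-miR-125b alone has 2 loci, so its level cannot be assigned to chromosome 11 or 21. hsa-let-7a has 3 loci, of which 1 is in this cluster, while hsa-let-7c and hsa-let-7e have 1 each. The chromosome 19 transcript is therefore the one in which every mature miRNA has a single source.

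**Figure D1:**
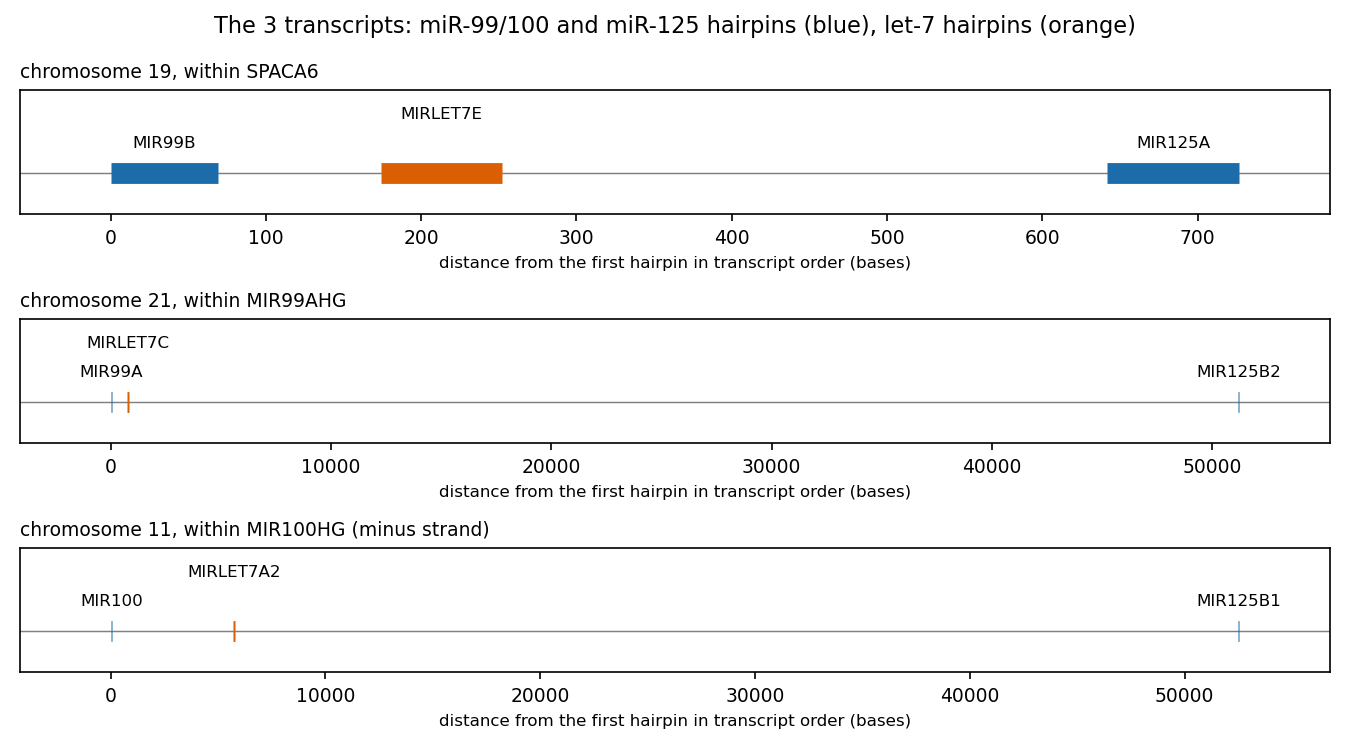
Hairpins of the 3 transcripts by distance in bases from the first hairpin in transcript order, with miR-99/100 and miR-125 hairpins in blue and let-7 hairpins in orange; each panel has its own scale. The chromosome 19 hairpins span 728 bases, against 51237 on chromosome 21 and 52552 on chromosome 11.

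Each assay was read from a single PCR well per sample as a threshold cycle (Ct). Abundant miRNAs reach the fluorescence threshold early, so high levels give a low Ct, and at full efficiency 1 cycle stands for 2-fold. Between 198 and 228 miRNA assays gave a Ct in a sample, and 157 were under Ct 35 in all 6. The reference U6, a small nuclear RNA, averaged from 12.2 to 15.4 cycles over 2 to 4 determined wells, and control sample 3, with 2 wells, had the earliest U6. Within a sample the U6 wells spanned from 0.36 cycles in KD sample 3 to 2.77 in control sample 1. This spread enters every log2 ratio to U6. The mean Ct of the 157 commonly detected assays ran from 25.9 to 27.7 and was latest in KD samples 2 and 3. Of the 4 miRNAs fixed as typical of this line, all were determined in every sample, from Ct 16.2 for miR-17 to 28.0 for miR-92a. Of 12 assays fixed as markers of other cell types, 2 (miR-122 and miR-302a) were undetermined in every sample and 3 were determined in all 6. These 3 were miR-126, an endothelial miRNA, at Ct 21.2 to 24.8, miR-133a of muscle at 27.9 to 31.7 and miR-223 of blood cells at 29.5 to 36.2. Mean Ct in control and KD was 22.3 and 23.5 for miR-126, 29.2 and 30.0 for miR-133a and 30.5 and 33.0 for miR-223. The part of such RNA in the results was not tested.

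By raw Ct the 6 miRNAs fell into 3 levels. The 5p strand hsa-miR-125a-5p was the earliest, at a mean of 24.6 ± 0.990 cycles (SD, n = 6). hsa-miR-99b, hsa-miR-100, hsa-miR-125b and hsa-miR-99a followed at 26.5 ± 0.714, 26.8 ± 1.23, 27.0 ± 1.06 and 27.4 ± 1.15 (SD, n = 6). The other strand of miR-125a, hsa-miR-125a-3p, was the latest at 30.5 ± 0.470 (SD, n = 6). hsa-miR-125a-5p preceded hsa-miR-99b in 6 of 6 samples by 1.94 ± 0.848 cycles (SD), and hsa-miR-99a preceded hsa-miR-125a-3p in 6 of 6 by 3.14 ± 1.11 (SD). Neighbours among the 4 miRNAs between them lay close together. The gap was 0.340 ± 0.775 cycles from hsa-miR-99b to hsa-miR-100, 0.142 ± 0.471 from hsa-miR-100 to hsa-miR-125b and 0.422 ± 0.404 from hsa-miR-125b to hsa-miR-99a (SD, n = 6), with the later miRNA behind in 3, 3 and 5 of 6 samples. The first of these gaps and the one after it were smaller than their SD, and the gap from hsa-miR-125b to hsa-miR-99a was just above its SD. Further apart in the order, hsa-miR-99b preceded hsa-miR-99a in 6 of 6 samples by 0.904 ± 0.558 cycles and hsa-miR-125b in 6 of 6 by 0.482 ± 0.428 (SD). Ct values of different assays also carry the efficiency of each assay, so this order describes wells and not molecules.

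Relative to U6, none of the 6 miRNAs differed between knockdown and control beyond the spread of the samples. In limma with Benjamini-Hochberg adjustment over all 195 assays tested, 0 of the 6 passed an adjusted p of 0.05 (0% of all tested assays did), and 0 had an unadjusted p under 0.05. The adjusted p was 0.999 for each. The median log2 change of the 6 was -0.13, beside -0.10 for all 195. The mean was lower in KD for 5 of the 6, beside 59.5% of all tested assays. Less RNA per cell and fewer cells carrying a miRNA cannot be told apart in such extracts.

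On chromosome 19, hsa-miR-99b had log2 ratios to U6 of -11.09, -12.11 and -13.98 in control samples 1, 2 and 3 and of -11.26, -12.00 and -14.12 in KD samples 1, 2 and 3. On this scale series 1 was high and series 3 low in both groups, and the groups overlapped almost fully. The log2 change was -0.07 (95% interval -2.96 to 2.82, limma). Within series 1, 2 and 3 it was -0.17, 0.11 and -0.14.

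The guide strand hsa-miR-125a-5p, which with hsa-miR-125b carries the lin-4 seed, had log2 ratios of -9.51, -10.63 and -11.04 in control samples 1, 2 and 3. In KD samples 1, 2 and 3 they were -9.94, -10.77 and -11.02. On this scale its range over the samples was the narrowest of the 6. Relative to the commonly detected assays its values ran from 1.36 to 3.36, a wider range than that of hsa-miR-99b (-0.20 to 0.51). The log2 change was -0.19 (95% interval -3.06 to 2.68, limma), and within series 1, 2 and 3 it was -0.43, -0.14 and 0.01.

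The opposite strand hsa-miR-125a-3p was the one member with a higher mean in knockdown. Its log2 ratios were -15.87, -16.57 and -18.00 in control samples 1, 2 and 3 and -15.33, -15.99 and -17.08 in KD samples 1, 2 and 3. Each KD value lay above the control value of its own series, while the groups as a whole overlapped. The log2 change was 0.68 (95% interval -2.19 to 3.56, limma; adjusted p = 0.999), smaller than the SD of 1.09 in control and 0.885 in KD (n = 3 each). It was 0.54, 0.59 and 0.92 within series 1, 2 and 3. The SD of these 3 values was 0.209, against 0.652 relative to the commonly detected assays. Leaving out any 1 sample gave log2 changes from 0.09 (without control sample 3) to 1.16 (without KD sample 3). The median of all tested assays was -0.74 without control sample 3, beside -0.10 with all samples.

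On chromosome 21, hsa-miR-99a had log2 ratios of -11.38, -12.76 and -15.44 in control samples 1, 2 and 3 and of -11.64, -13.01 and -15.74 in KD samples 1, 2 and 3. On the U6 scale the samples of series 3 lay about 4 log2 units under those of series 1 in both groups. The log2 change was -0.27 (95% interval -3.18 to 2.64, limma). Within series 1, 2 and 3 the difference was -0.26, -0.25 and -0.30, and its SD of 0.028 was the smallest among the 161 assays determined in all samples (median SD 0.681). That evenness belongs to the U6 scale. Relative to the commonly detected assays the same differences were -0.09, -0.61 and 0.30, with an SD of 0.453 against a median of 0.583. There the series also lay closer, at -0.25 and -1.66 in control samples 1 and 3 and -0.34 and -1.37 in KD samples 1 and 3.

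On chromosome 11, hsa-miR-100 had log2 ratios of -10.68, -12.79 and -14.76 in control samples 1, 2 and 3 and of -10.90, -11.83 and -15.64 in KD samples 1, 2 and 3. The values ran from -10.68 to -15.64 over the samples, against a log2 change of -0.05 (95% interval -2.96 to 2.87, limma). The series went different ways, at -0.22, 0.96 and -0.88.

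hsa-miR-125b, which has loci on both chromosome 11 and chromosome 21, had log2 ratios of -11.16, -12.78 and -14.28 in control samples 1, 2 and 3. In KD samples 1, 2 and 3 they were -11.38, -12.50 and -15.34. The log2 change was -0.33 (95% interval -3.23 to 2.57, limma), and the series gave -0.21, 0.27 and -1.06. Its lowest value was in KD sample 3, below every control sample, and the other KD values lay among the controls.

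**Figure D2:**
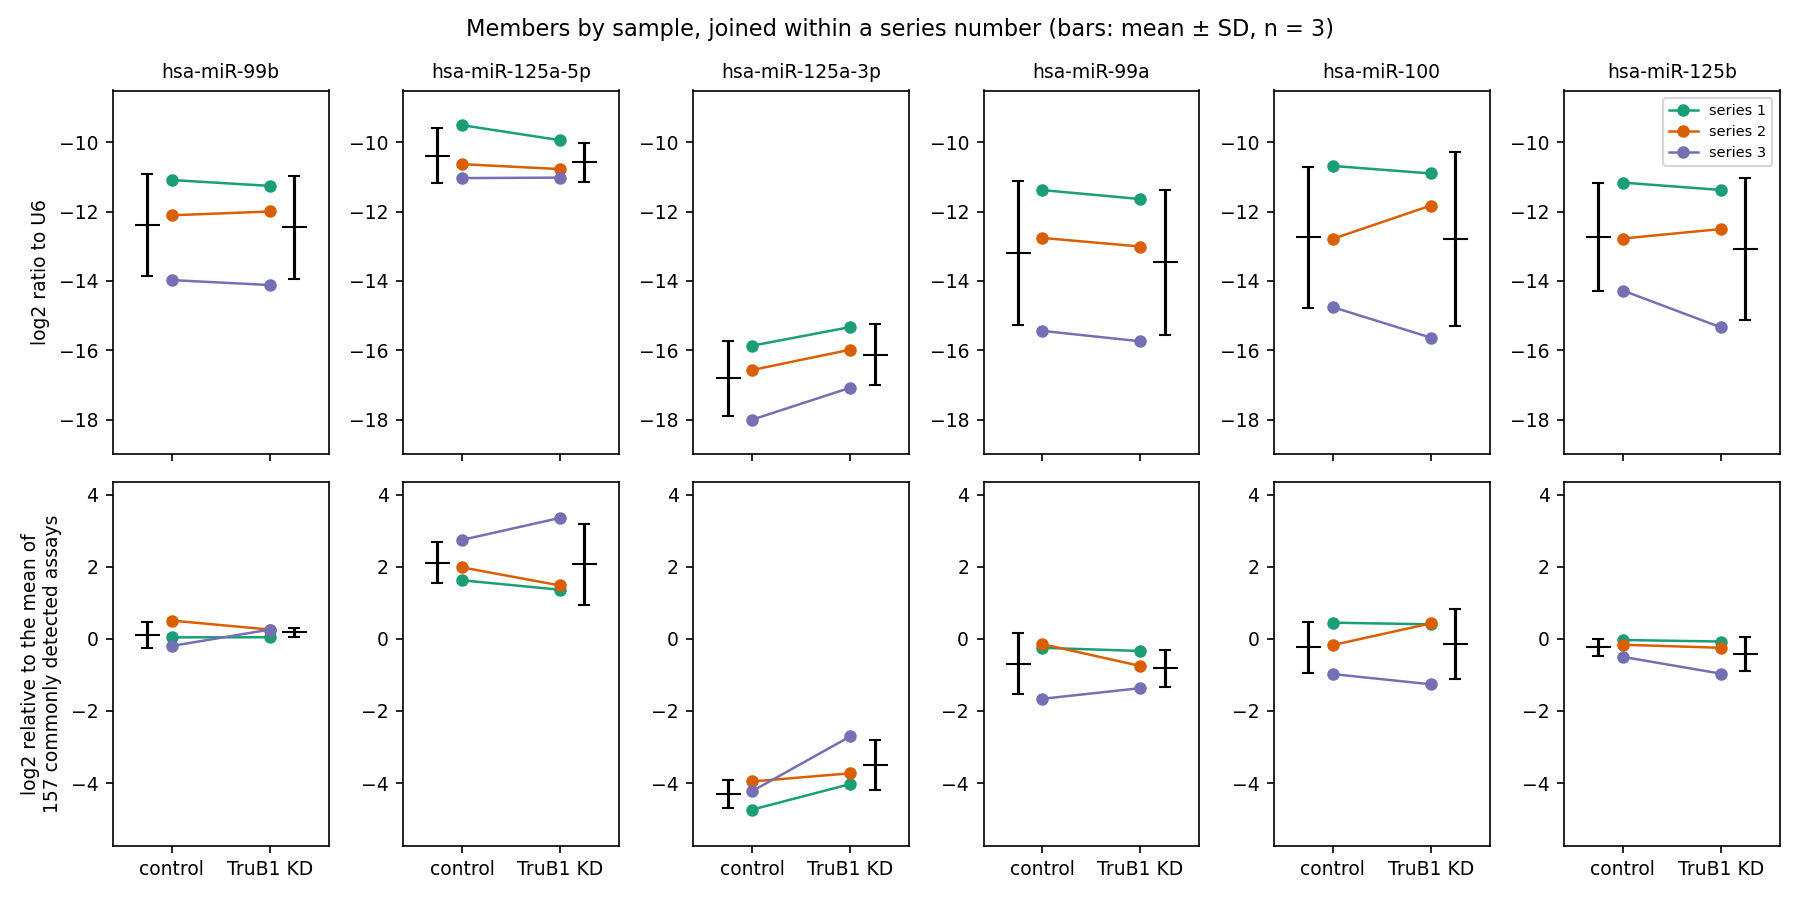
Values of the 6 miRNAs in control and TruB1 KD samples, as log2 ratio to U6 (top) and as log2 relative to the mean of the 157 commonly detected assays (bottom); lines join samples of a series number and black bars give the mean ± SD of 3 samples. Relative to U6 the series numbers lie further apart than the groups, and hsa-miR-125a-3p is higher in KD in all 3 series on both scales.

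The share of assays on one side in all 3 series gives these signs a scale. Relative to U6, hsa-miR-125a-3p was the 1 member higher in KD in all 3 series, where 4.35% of the 161 assays determined throughout were, and hsa-miR-99a was the 1 member lower in all 3, where 19.3% were. Relative to the commonly detected assays, hsa-miR-125a-3p was again higher in 3 of 3 series, by 0.71, 0.23 and 1.52, where 11.8% of assays were higher and 11.8% lower. hsa-miR-125b was then the 1 member lower in 3 of 3, by -0.04, -0.09 and -0.47. By raw Ct alone hsa-miR-125a-3p was 0.40 log2 units higher in series 1 and lower in series 2 and 3 (-0.89 and -0.18), where the medians of all 161 assays were -0.32, -1.15 and -1.66. For 0 of the 6 members, and 0% of the 161 assays, did the KD and control values relative to U6 fail to overlap.

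When series number entered as a replicate block, the same changes had standard errors of 0.411 to 0.499 in place of 1.45 to 1.48. No member passed an adjusted p of 0.05 in that limma fit either, and 0% of the 189 assays it could test did. The largest change among the members, 0.68 for hsa-miR-125a-3p, had a 95% interval of -0.30 to 1.66 and an adjusted p of 0.971 (limma, replicate block). For hsa-miR-99b the interval was -1.04 to 0.91 and for hsa-miR-125a-5p -1.17 to 0.79. For hsa-miR-99a it was -1.24 to 0.70, for hsa-miR-100 -1.22 to 1.13 and for hsa-miR-125b -1.42 to 0.75.

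**Figure D3:**
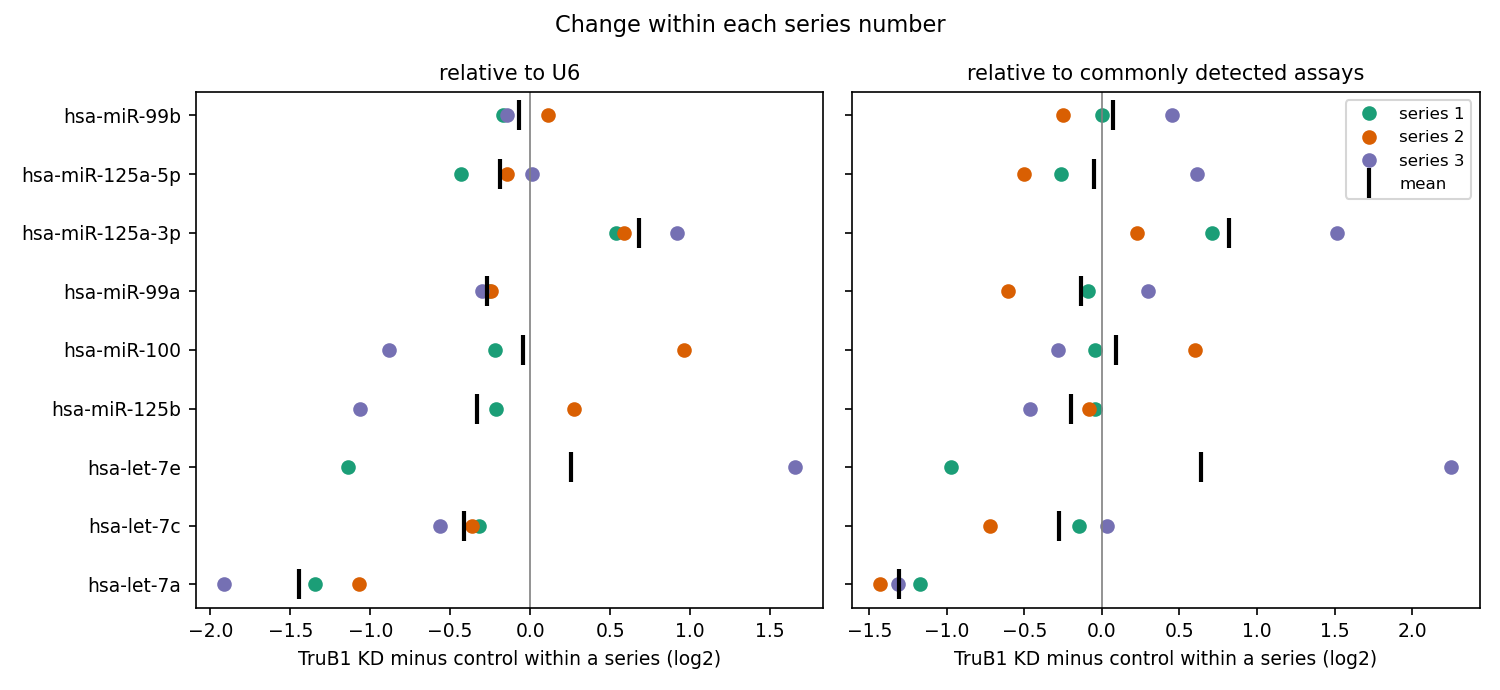
Difference between TruB1 KD and control within each series number (points) and its mean (bar) for the 6 miRNAs and the let-7 miRNAs of the same transcripts, relative to U6 (left) and to the commonly detected assays (right), in log2 units. hsa-miR-125a-3p is above 0 and hsa-let-7a below 0 in all series on both scales, and hsa-let-7e has no value in series 2.

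The strands of the miR-125a hairpin were set against each other within each sample. This removes U6 and, where both assays have the same efficiency, the amount of RNA. The efficiencies were not measured here. The comparison of the strands was chosen after the values of hsa-miR-125a-3p had been seen. The RefSeq hairpin on chromosome 19, chr19:51693254-51693339 on the plus strand, is shown with both mature strands in capitals, the 5p strand first.
MIR125A: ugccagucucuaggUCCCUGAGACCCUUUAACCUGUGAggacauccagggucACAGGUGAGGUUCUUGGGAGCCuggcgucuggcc
hsa-miR-125a-3p lay -6.36, -5.94 and -6.97 log2 units from hsa-miR-125a-5p in control samples 1, 2 and 3. In KD samples 1, 2 and 3 the difference was -5.39, -5.21 and -6.06. The strands were closer in KD than in the control of the same series in 3 of 3 series, while KD sample 3 lay below control sample 2, so the groups overlapped. The means were -6.42 ± 0.517 in control and -5.55 ± 0.449 in KD (SD, n = 3 each).

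The shift of 0.87 log2 units, a 1.83-fold change of the 3p to 5p ratio, exceeded both SDs but gave p = 0.2 in an exact two-sided permutation test, whose smallest possible p here is 0.1. Within series 1, 2 and 3 it was 0.97, 0.73 and 0.91, with an SD of 0.126, and the exact sign-flip test over these gave p = 0.25, the smallest that 3 series allow. Leaving out any 1 sample gave shifts from 0.60 (without control sample 3) to 1.12 (without KD sample 3). Of the 8 other hairpins with both strands determined in all samples, 1 (miR-362) had its later strand higher in all 3 series and 0 had it lower. Their mean shifts ran from -0.34 to 1.11 and their SDs between series from 0.239 to 1.30. Whether the shift of miR-125a differs from those of the other hairpins was not tested. The 3p strand is read at Ct 30.2 to 31.4, far later than the 5p strand, and each value is 1 well.

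Each partner was then compared with the let-7 miRNA of its transcript in the same sample, in 7 pairs, and with another partner in 3 more. No pair separated the groups. Exact two-sided permutation p-values ran from 0.4 to 1, and after adjustment over the 10 pairs from 0.857 to 1. The smallest possible p was 0.1.

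On chromosome 21, where both miRNAs have a single locus, hsa-miR-99a and hsa-let-7c kept nearly the same distance within each series. hsa-miR-99a lay 3.90, 2.57 and 3.63 log2 units above hsa-let-7c in control samples 1, 2 and 3 and 3.96, 2.69 and 3.89 above it in KD samples 1, 2 and 3. The group means were 3.37 ± 0.700 and 3.51 ± 0.715 (SD, n = 3 each). Their difference of 0.15 was well inside both SDs, and the two-sided exact permutation test gave p = 0.6. Within series 1, 2 and 3 it was 0.06, 0.11 and 0.26. The more distant hsa-miR-125b, set against hsa-let-7c, gave 0.11, 0.64 and -0.50, and its group difference was 0.08.

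On chromosome 11 the distance to let-7 was larger in KD in every series. hsa-miR-100 lay 3.81, 1.29 and 4.58 log2 units above hsa-let-7a in control samples 1, 2 and 3 and 4.94, 3.32 and 5.61 above it in KD samples 1, 2 and 3. KD sample 2 was below 2 of the controls, so the groups overlapped. The means were 3.22 ± 1.72 and 4.62 ± 1.18 (SD, n = 3 each), a difference of 1.40 (exact permutation test, two-sided, p = 0.4). It was 1.13, 2.03 and 1.03 within series 1, 2 and 3, for which the exact sign-flip test gave p = 0.25, the smallest possible. hsa-miR-125b against the same hsa-let-7a gave 1.13, 1.34 and 0.85, with a group difference of 1.11 (exact permutation test, two-sided, p = 0.5). Both pairs share the hsa-let-7a well, so they are not separate evidence. That well alone had log2 changes relative to U6 of -1.35, -1.07 and -1.91. hsa-let-7a was read at Ct 28.0 to 34.5, and since it also has loci outside this cluster, the pair does not compare products of 1 transcript.

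On chromosome 19 the let-7 member did not give a steady value. hsa-let-7e was read at Ct 25.5 in control sample 1, undetermined in control sample 2 and at 27.6 in control sample 3. In KD samples 1, 2 and 3 it was at 26.8, 22.8 and 27.0. hsa-miR-99b, 104 bases from it in the genome, stayed between 25.8 and 27.4 in the same 6 samples. The difference between them was -0.29 and 1.45 in control samples 1 and 3 and 0.68, -4.66 and -0.34 in KD samples 1, 2 and 3. KD sample 2 stands apart by over 4 log2 units from the next lowest. The group difference of -2.02 (n = 2 and 3, exact permutation test, two-sided, p = 0.5) rested on it and was -0.41 without KD sample 2. In series 1 the difference was 0.97 and in series 3 -1.80. Against hsa-miR-125a-5p and hsa-miR-125a-3p the group difference was -2.41 and -1.29 (exact permutation test, two-sided, p = 0.6 and 0.8), from the same hsa-let-7e wells. Without KD sample 2 these became -0.47 and 0.47. With undetermined wells set to Ct 40, the differences of hsa-let-7e from hsa-miR-99b, hsa-miR-125a-5p and hsa-miR-125a-3p were -6.47, -6.59 and -5.72, so none of the 3 has a settled size.

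**Figure D4:**
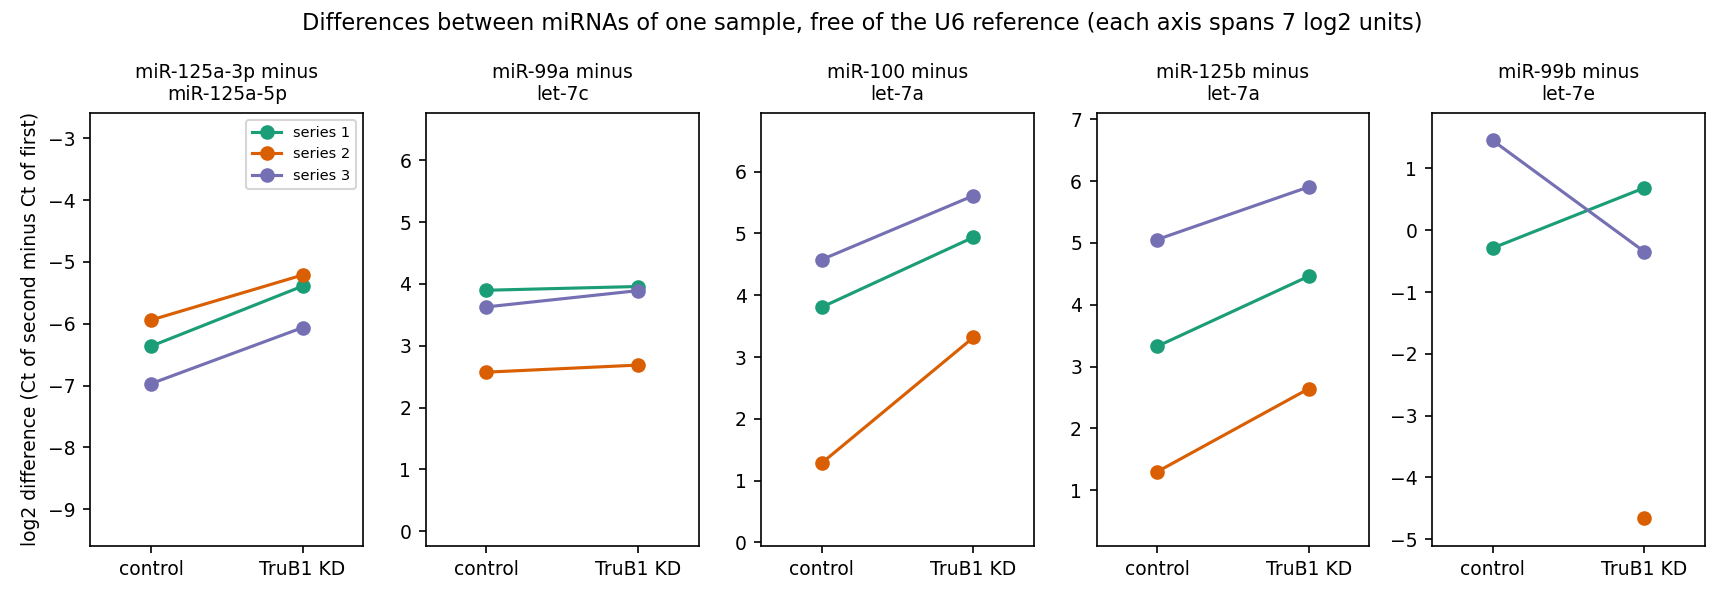
Log2 difference between 2 miRNAs of the same sample (Ct of the second minus Ct of the first) in control and TruB1 KD samples, joined by series number, with each axis spanning 7 log2 units. The 3p strand of miR-125a is nearer to the 5p strand in KD by 0.73 to 0.97, the distance of hsa-miR-99a to hsa-let-7c moves by 0.06 to 0.26, and the pair with hsa-let-7e has no control value in series 2.

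Between partners from different hairpins, group differences in the pairs compared were smaller than the SD of either group. hsa-miR-99b minus hsa-miR-125a-5p was -2.00 ± 0.818 in control and -1.88 ± 1.06 in KD, hsa-miR-99a minus hsa-miR-125b -0.45 ± 0.625 and -0.39 ± 0.122, and hsa-miR-100 minus hsa-miR-125b -0.00252 ± 0.479 and 0.29 ± 0.513 (SD, n = 3 each). hsa-miR-99a and hsa-miR-100, which differ by 1 base and come from chromosomes 21 and 11, were -0.45 ± 0.415 and -0.68 ± 0.540 apart. Their difference changed from control to KD by -0.04, -1.21 and 0.58 in series 1, 2 and 3.

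All 8 let-7 and miR-98 assays are on the card. Of the 3 from these transcripts, 0 passed an adjusted p of 0.05 in limma, with log2 changes of -1.44 for hsa-let-7a, -0.42 for hsa-let-7c and 2.10 for hsa-let-7e. The last value includes KD sample 2, whose series has no control value, and was 0.26 with the replicate block, from -1.14 in series 1 and 1.66 in series 3. Of the 5 others, 4 could be tested, 0 passed and all 4 had a lower mean in KD, as did 59.5% of all tested assays. With the replicate block, hsa-let-7a had a 95% interval of -2.46 to -0.43 (limma, unadjusted p = 0.012, adjusted p = 0.728). In the same limma fit hsa-let-7g, from outside these transcripts, was at -1.99 over 2 series (-3.52 to -0.46, unadjusted p = 0.019, adjusted p = 0.728). The intervals of the other let-7 miRNAs tested included 0. Of the 6 members, 0 had an unadjusted p under 0.05 in that fit.

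The patterns of the 6 miRNAs over the samples were compared after subtracting the mean Ct of commonly detected assays. Likeness was Pearson's r over 6 samples, among 156 assays, as a description, since the samples share series numbers. hsa-miR-99a, hsa-miR-100 and hsa-miR-125b resembled each other (r = 0.81 for hsa-miR-99a with either and 0.90 for hsa-miR-100 with hsa-miR-125b). hsa-miR-125a-5p ran opposite to them, with r = -0.98 against hsa-miR-100 and -0.93 against hsa-miR-125b, being highest in the series 3 samples where those were lowest. hsa-miR-99b, from the same transcript as hsa-miR-125a-5p, had r = -0.07 with it and 0.42 with hsa-miR-125a-3p. The miR-125a strands had r = 0.63 with each other. With hsa-let-7c and hsa-let-7a, r was 0.79 and 0.78 for hsa-miR-99a and 0.72 and 0.53 for hsa-miR-99b. It was 0.64 and 0.69 for hsa-miR-100 and 0.65 and 0.77 for hsa-miR-125b. For hsa-miR-125a-5p it was -0.66 and -0.71, and for hsa-miR-125a-3p -0.26 and -0.51. hsa-let-7e, undetermined in control sample 2, was not among the assays compared.

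The 3 assays most like each member were all from outside these transcripts. They were miR-148b (0.93), miR-487a (0.90) and miR-93 (0.90) for hsa-miR-99a. For hsa-miR-99b they were miR-362 (0.94), let-7f (0.88) and miR-183 (0.86), and for hsa-miR-100 miR-423-5p (0.97), miR-494 (0.96) and miR-34a (0.96). hsa-miR-125b was most like miR-424 (0.95), miR-542-3p (0.94) and miR-101 (0.94). hsa-miR-125a-5p was most like miR-574-3p (0.99), miR-140-3p (0.98) and miR-146b (0.96), and hsa-miR-125a-3p like miR-320 (0.91), miR-106a (0.91) and miR-374-5p (0.82). Of the 3 most like hsa-miR-125a-3p, miR-320 and miR-106a were also among the 19 assays higher in KD in all 3 series on this scale. Likeness and these signs come from the same values, so the overlap is not separate evidence.

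In the authors' deposited table the linear fold changes of knockdown over control in series 1, 2 and 3 were 1.45, 1.50 and 1.89 for hsa-miR-125a-3p, 0.740, 0.906 and 1.01 for hsa-miR-125a-5p and 0.890, 1.08 and 0.906 for hsa-miR-99b. The authors' deposited table gives 0.836, 0.842 and 0.812 for hsa-miR-99a, 0.860, 1.95 and 0.543 for hsa-miR-100 and 0.863, 1.21 and 0.479 for hsa-miR-125b.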

How the data were processed

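Per the labels' protocols, 1000 ng of total RNA was reverse transcribed with Megaplex Pool A primers and run on TaqMan array cards for 40 cycles. The deposited raw values are Ct, with threshold and baseline settings not given in the sources used here. The deposited normalized value is a ratio to U6. On the log2 scale it is the U6 mean over determined wells minus the Ct of the assay, to within 6.77e-06, and the authors' fold changes were recovered to 1.01e-05. A U6 mean moves every assay of its sample, and no counts lie behind a Ct.

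The log2 ratio was tested in limma 3.58.1 (R 4.3.3; lmFit and eBayes, two-sided, group as the only term) over assays under Ct 35 in at least 3 samples and determined in at least 2 of each group, with undetermined wells missing. The test was checked on simulated data. Differences between miRNAs used Ct within a sample and exact permutation tests.

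The group mean of each assay was subtracted from its log2 ratios, and what was left was correlated between control and KD samples. Over 161 assays, samples of the same number had r = 0.416 to 0.625, against -0.536 to 0.249 otherwise. These values describe deviations from a group mean and not whole profiles. The numbers, given in the titles and used in the authors' fold changes, were taken as pairs. What a number stands for is not stated. Alternatives were other references, filters, the replicate block and leaving out samples. Named are the 6 members, the let-7 miRNAs, U6, the markers and the 3 assays most like each member. miR-206, a planned marker, was not analysed here. Members and lists were chosen with earlier results of these data known, and 3 pairs were added after values were seen.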

Additional observations from a re-analysis of the deposited data

How the results depend on the processing

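Under all 16 alternatives 0 assays passed an adjusted p of 0.05, the replicate block included, which changed no call (smallest adjusted p 0.243 in limma; 10 assays had an unadjusted p under 0.05, against 0 without it). Directions turned as follows. With the commonly detected assays as reference, with or without the block, hsa-miR-99b was 0.0692 and hsa-miR-100 0.0907, and after quantile normalization 0.0609 and 0.30. By raw Ct, which carries a median shift of -1.0 over all assays, hsa-miR-125a-3p was -0.22. Paired within series, hsa-miR-125a-3p minus hsa-let-7e was 0.47 over 2 series. The cause was not tested.

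Leaving out 1 sample breaks a pair. Log2 changes then ran from -1.39 to 0.87 for hsa-miR-99a, -0.86 to 0.76 for hsa-miR-99b, -1.05 to 1.38 for hsa-miR-100, -0.51 to 0.25 for hsa-miR-125a-5p, -1.18 to 0.80 for hsa-miR-125b and 0.09 to 1.16 for hsa-miR-125a-3p, turning in 11 of 36 values. The 5 members with a lower mean turned without control sample 1 and without KD sample 3, and hsa-miR-99b also without control sample 2. The median of all assays ran from -0.81 without KD sample 1 to 0.76 without KD sample 3. Pair differences ran from -2.54 to 0.47 for hsa-miR-125a-3p minus hsa-let-7e, -0.25 to 0.56 for hsa-miR-99a minus hsa-let-7c, -0.55 to 0.57 for hsa-miR-125b minus hsa-let-7c, -0.35 to 0.73 for hsa-miR-99b minus hsa-miR-125a-5p, -0.29 to 0.30 for hsa-miR-99a minus hsa-miR-125b, -0.51 to 0.0291 for hsa-miR-99a minus hsa-miR-100 and -0.77 to 0.68 for hsa-miR-125a-5p minus hsa-miR-125b. No direction turned for hsa-miR-100 minus hsa-let-7a (0.43 to 2.07), hsa-miR-125b minus hsa-let-7a (0.15 to 2.02), hsa-miR-100 minus hsa-miR-125b (0.05 to 0.58), the miR-125a strands (0.60 to 1.12), hsa-miR-99b minus hsa-let-7e (-3.08 to -0.41) or hsa-miR-125a-5p minus hsa-let-7e (-3.96 to -0.47). With undetermined wells at Ct 40 the differences of hsa-miR-99b, hsa-miR-125a-5p and hsa-miR-125a-3p from hsa-let-7e were -6.47, -6.59 and -5.72.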
